A study of Homo sapiens with 97 samples.

Results

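The libraries described here are the 4 of the NIK construct among 97 libraries of the series, 2 labelled and 2 unlabelled, taken by their labels. NIK is the labels' name for a fusion of the peroxidase APEX2 that they assign to the nucleolus. It was stably expressed in HEK293T, an established human embryonic kidney line. All 4 cultures carried the construct and received biotin-phenol for 30 min. The labelled cultures were then given 1 mM hydrogen peroxide for 1 min, and the unlabelled cultures were not. The peroxidase turns biotin-phenol into a short-lived radical that tags nearby RNA, so that tagged RNA can be pulled down. The labels name the replicates biological and do not say whether the line was 1 clone. For comparison, the nuclear constructs NLS (nucleus) and LMA (nuclear lamina) had 2 labelled and 2 unlabelled libraries each, made in the same way in cells carrying those constructs. Nuclear and cytosol fractions of HEK293T cells had 2 libraries each.

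The nucleolus is the nuclear body in which ribosomal RNA is transcribed by RNA polymerase I, cut and modified with the help of small nucleolar RNAs (snoRNAs), and joined with ribosomal proteins that are made in the cytosol. Polyadenylated messenger RNAs are not its main content. The libraries were selected for poly(A) RNA, and the labels state that RNA shorter than about 100 bases was poorly recovered, so most snoRNAs lie outside what was measured.

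The labelled NIK libraries held 26235901 and 21217085 counts and the unlabelled ones 23111779 and 19932630. Levels are given as CPM, counts scaled by the total of their library. Of 11862 genes that averaged 5 CPM or more over the poly(A) libraries, labelled library 1 lacked any count for 6.06% and labelled library 2 for 2.94%. The unlabelled libraries lacked 0.18% and 0.02%. Over these genes the log2(CPM + 0.5) values of the labelled pair had a Pearson correlation of 0.707 and differed with an SD of 1.831, against 0.957 and 0.513 for the unlabelled pair. The labelled pair was the least alike of all 18 pairs of poly(A) libraries. The labels describe replicate correlation in the series as high, without naming the measure. Of 10 HEK293T markers 8 had a count in labelled library 1, where PAX2 and KRT8 had none, and all 10 had one in the other 3 libraries, while 11 of 16 markers of other cell types had no count in any. The summed level of those 16 genes was 14 and 6.08 CPM in the labelled and 12.1 and 15.4 CPM in the unlabelled libraries.

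**Figure D1:**
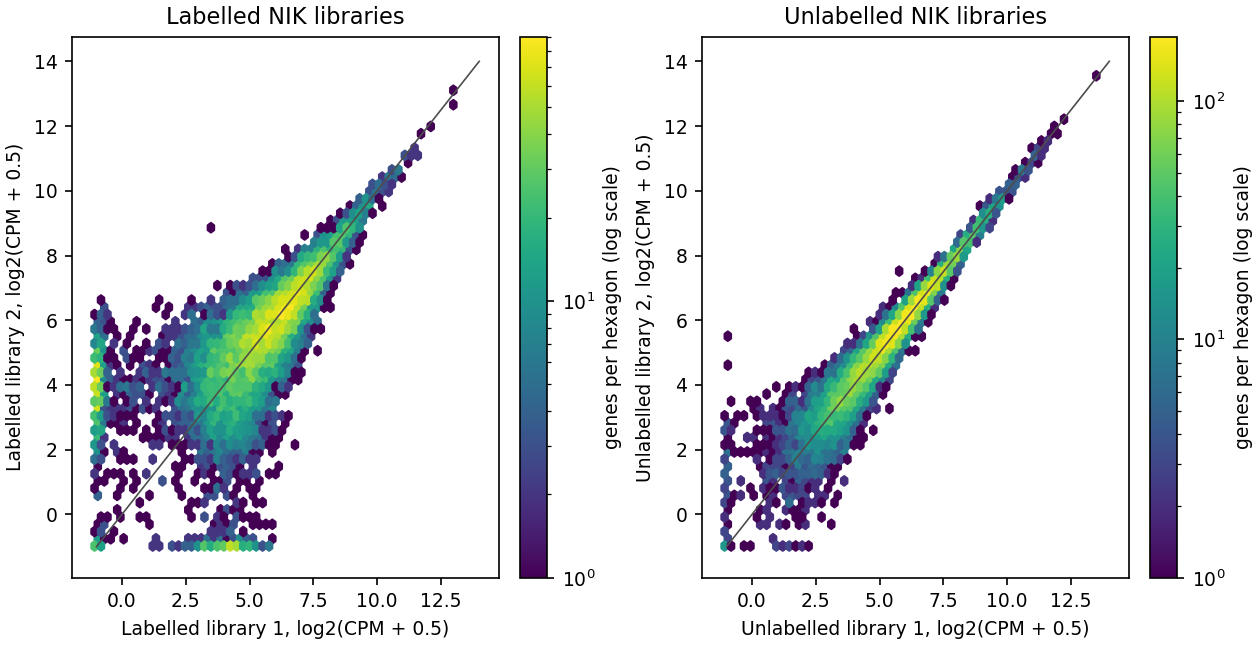
Each panel plots one library of a NIK pair against the other in log2(CPM + 0.5), with hexagon colour giving the number of genes on a log scale, for genes averaging 5 CPM or more over the 4 NIK libraries. The unlabelled pair follows the diagonal, while the labelled pair widens below about the middle of the range and has bands of genes without a count along both axes.

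The spread depended on the level of a gene. Among genes at 5 to 10 CPM in the unlabelled libraries, labelled library 1 lacked a count for 27.1% and labelled library 2 for 15%. From 50 to 100 CPM these shares were 0.0408% and 0, of 2448 genes. The SD of the difference between the labelled libraries fell from 2.89 at 5 to 10 CPM to 0.999 at 50 to 100 CPM and 0.301 from 500 CPM. The NLS labelled pair had 0.474, 0.214 and 0.132 at the same levels. Of 11592 genes at 5 CPM or more in the unlabelled libraries, 554 lacked a count in labelled library 1 only, 207 in labelled library 2 only and 115 in both. The highest unlabelled level of a gene without a count was 55.3 CPM for labelled library 1 and 36.9 CPM for labelled library 2. For genes under about 50 CPM the labelled values are thus imprecise, at total counts like those of the unlabelled libraries.

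**Figure D2:**
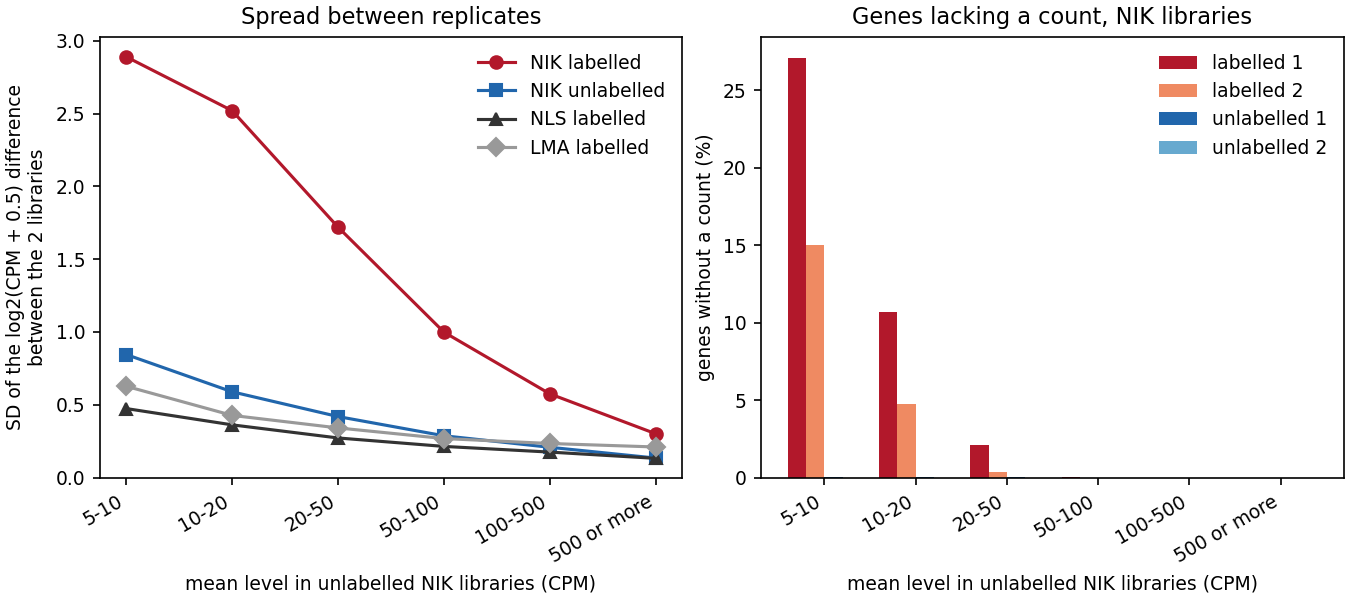
The left panel gives the SD of the log2 difference between 2 libraries of a group, and the right panel the percentage of genes without a count in each NIK library, both by the mean level in the unlabelled NIK libraries in CPM. The labelled NIK pair lies above the 3 other pairs at every level, from 2.89 at 5 to 10 CPM to 0.301 from 500 CPM, and only the labelled libraries show visible shares of missing genes.

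Labelled against unlabelled asks which RNAs made up a larger share of the labelled libraries. At an adjusted p under 0.05 in edgeR's quasi-likelihood test, 290 of 22680 genes were higher (1.28%) and 899 lower (3.96%). Among the 11859 genes averaging 5 CPM or more over the NIK libraries these were 290 (2.45%) and 671 (5.66%). All values are shares of a library, so a rise of some RNAs lowers the share of others, and more RNA at the tagged place cannot be told apart from more tagging of each molecule. The spread in this test was estimated over all 36 poly(A) libraries, most of which agreed better than the labelled NIK pair. With the spread estimated from the 4 NIK libraries alone no gene was called, and 2952 of them had an unadjusted p under 0.05. With limma voom, which gives less weight to libraries that fit poorly, 270 were higher and 270 lower, 437 of them among the 1189 above. Without labelled library 2 the test called 557 higher and 2280 lower, without unlabelled library 1 it called 116 higher, and without unlabelled library 2 it called 131 higher.

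Groups that did not overlap were common: 50.1% of genes from 5 CPM had both labelled values on one side of both unlabelled values. Of the 1189 called genes 1188 did. The exception was ATP1B1, a sodium pump subunit called lower, with 11.4 and 34.4 CPM labelled against 90.1 and 34.1 CPM unlabelled. None of the 290 higher genes lacked a count in a labelled library, while 279 of the 899 lower genes did and 188 had no count in either.

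Of 26 tested long noncoding RNAs known to stay in the nucleus, 5 rose and 1 fell. MALAT1, a nuclear speckle RNA (GRCh38 chromosome 11, 65497688 to 65506516), had 111 and 98.4 CPM in the labelled and 19.4 and 18.3 CPM in the unlabelled libraries. Both labelled values were well above the unlabelled ones, and the log2 fold change was 2.41 ± 0.50 (standard error, SE; edgeR adjusted p = 0.0022). NEAT1, the scaffold of paraspeckles on the same chromosome (65422774 to 65445540), had 83.5 and 309 CPM against 55.3 and 40.5 CPM. The groups did not overlap, but the labelled libraries differed severalfold between themselves. Its log2 fold change was 1.95 ± 0.42 (edgeR adjusted p = 0.00362), and the call was lost without labelled library 2. TUG1 had 512 and 372 against 248 and 238 CPM (0.81 ± 0.22 on the log2 scale, edgeR adjusted p = 0.0223). Leaving out labelled library 1 or either unlabelled library ended that call.

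GABPB1-AS1, transcribed antisense to the gene of a transcription factor subunit (chromosome 15, 50354959 to 50372202), stood at 140 and 125 CPM against 17.4 and 14.9 CPM. Its log2 fold change of 2.98 ± 0.69 (edgeR adjusted p = 0.0071) was called in each fit that left out 1 library. THUMPD3-AS1 had 33.1 and 133 against 24.7 and 24.7 CPM (1.67 ± 0.41 on the log2 scale, edgeR adjusted p = 0.0102), a call lost without labelled library 2, without either unlabelled library and under limma voom. The library kit kept strand, but whether the counting used it is not given in the sources used here, so reads of an antisense RNA and of its partner may not be told apart where they overlap. Over all genes 1.28% rose and 3.96% fell. The list's member that fell was FIRRE, with 0 counts in both labelled libraries and 129 and 64 counts unlabelled. Over the 2 groups that is at least 70.9-fold lower by a floor of 3 counts. The bound is for counts and not for RNA: even at 5 to 10 CPM the labelled libraries lacked 27.1% and 15% of genes. Of the 19 members from 5 CPM, 13 had both labelled values above both unlabelled ones, 5 overlapped and 1 had both below. Without either unlabelled library 3 members rose in place of 5. The list's median log2 fold change was 0.79, against 0.00 over all genes tested, and it was 0.31 without labelled library 2 and 0.53 without labelled library 1.

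Messenger RNAs that are known to be held in the nucleus with introns formed the list with the most members higher. Of 32 members 19 rose and none fell, and the median log2 fold change was 1.21. All 32 were above 5 CPM, where 2.45% of all genes rose and 5.66% fell. Both labelled values were above both unlabelled ones in 25 members, while 50.1% of all genes from 5 CPM did not overlap in either direction. DDX17, an RNA helicase gene (chromosome 22, 38483440 to 38507660), had 2458 and 2326 CPM labelled against 726 and 726 CPM unlabelled, the highest level of the list's named members and one at which the replicates agreed closely. Its log2 fold change was 1.66 ± 0.18 (edgeR adjusted p = 7.28e-07). DDX39B, a helicase of splicing and RNA export, had 444 and 399 against 131 and 123 CPM (1.67 ± 0.20, edgeR adjusted p = 2.97e-06). MAT2A, which makes S-adenosylmethionine and whose intron retention is regulated, had 821 and 749 against 248 and 195 CPM (1.77 ± 0.24, edgeR adjusted p = 1.48e-05). NKTR, a cyclophilin gene, had 405 and 415 against 112 and 109 CPM (1.84 ± 0.28, edgeR adjusted p = 6.73e-05). In all of these the 4 values fell into separate groups and the replicates lay close together.

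Other members of this list had the same direction. The cyclin L genes, whose proteins act in splicing, were the furthest apart: CCNL2 had 422 and 339 against 68.3 and 80.4 CPM (2.30 ± 0.38, edgeR adjusted p = 0.000186), and CCNL1 had 226 and 184 against 47.5 and 51.5 CPM (2.00 ± 0.34). The kinase gene CLK1 and the p53 regulator MDM4 had log2 fold changes of 1.72 and 1.68. Counts are per gene, so whether the retained introns themselves were in the RNA is not shown by them. The number of members called was 17 under limma voom and ran from 14 to 20 when single libraries were left out.

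Among genes of SR and hnRNP splicing factors, all from 5 CPM, 8 of 43 rose and 2 fell, against 2.45% and 5.66% of all genes at that level. SRSF6 (chromosome 20, 43457928 to 43464247), one of the SR proteins whose messages contain a poison exon, had 606 and 584 CPM against 229 and 208 CPM (1.39 ± 0.17, edgeR adjusted p = 2.97e-06). SRSF11 had 949 and 844 against 290 and 276 CPM (1.61 ± 0.24, edgeR adjusted p = 4.46e-05). HNRNPH1 had 1243 and 1381 against 624 and 597 CPM (1.05 ± 0.16, edgeR adjusted p = 8.34e-05), and HNRNPA1 643 and 802 against 361 and 326 CPM (1.01 ± 0.18, edgeR adjusted p = 0.00067). All 4 were called under limma voom as well. HNRNPK and HNRNPA0 fell by 0.50 and by 0.93 on the log2 scale. The list as a whole did not shift: its median was 0.13 and turned to -0.07 without unlabelled library 2, and 4 members rose without labelled library 1, without unlabelled library 2 and under limma voom.

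**Figure D3:**
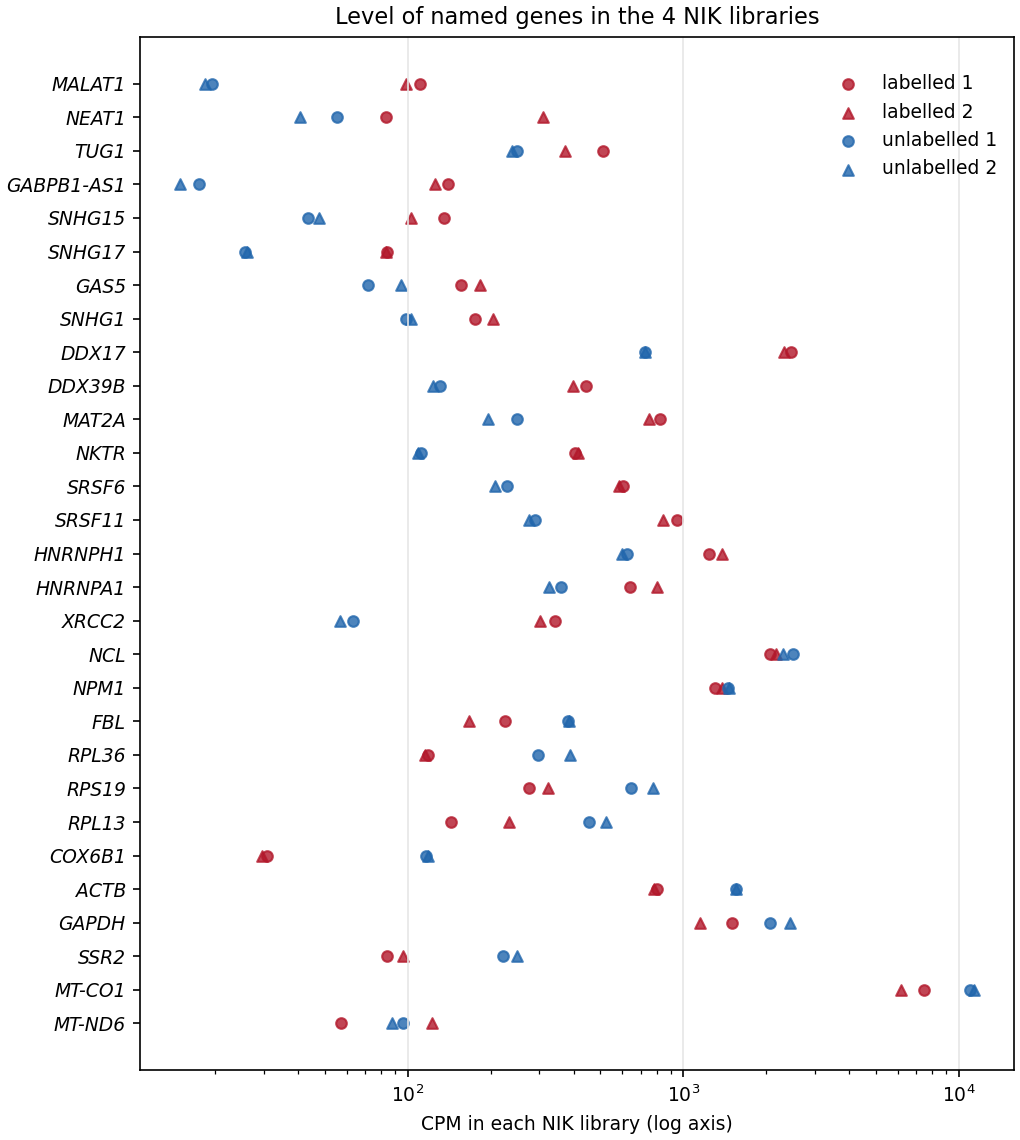
CPM of named genes in the 4 NIK libraries on a log axis, with circles for library 1 and triangles for library 2 of each group. Labelled values (red) lie to the right of unlabelled ones (blue) from MALAT1 down to XRCC2 and to the left from FBL down to MT-CO1, while NCL and NPM1 differ little and MT-ND6 overlaps.

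Genes that host snoRNAs in their introns have a link to the nucleolus through those snoRNAs. The spliced transcripts of the hosts listed here are mostly noncoding, while other hosts encode proteins. Of 26 tested, 4 rose and none fell, against 1.28% and 3.96% of all genes tested. SNHG17 had 83.9 and 83.6 CPM against 25.7 and 26 CPM (1.64 ± 0.39, edgeR adjusted p = 0.00892), and SNHG15 had 135 and 103 against 43.4 and 47.7 CPM (1.33 ± 0.32, edgeR adjusted p = 0.0081). GAS5 (chromosome 1, 173863900 to 173868882), whose spliced RNA is decayed during translation, had 156 and 182 against 71.9 and 94.5 CPM (0.96 ± 0.27, edgeR adjusted p = 0.0279). SNHG1 had 176 and 204 against 98.7 and 103 CPM (0.85 ± 0.25, edgeR adjusted p = 0.0409). No group overlapped in these 4, yet without unlabelled library 1 none of the 4 was called. Against the unlabelled libraries of all 9 constructs SNHG1 had a log2 fold change of -0.03 and was not called, so the difference rests on which controls are taken. Among the members not called, SNHG3 had 154 and 153 against 56.5 and 74.6 CPM (1.17 ± 0.41, edgeR adjusted p = 0.105), and DANCR 49.8 and 62.8 against 74.3 and 78.8 CPM. The median of the list was 0.14 and -0.21 under limma voom, so no direction was read from it.

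RNAs of the nucleolus itself were few in these poly(A) libraries. The 5.8S ribosomal RNA gene RNA5-8SN2, 1 of several near-identical copies (scaffold KI270733.1, 128877 to 129029), had 30 and 393 counts in the labelled libraries and 0 in both unlabelled ones. Both labelled libraries had more than either unlabelled one, and over the groups it was at least 128-fold higher by a floor of 3 counts, but the edgeR adjusted p was 0.151. RMRP, the RNA of the RNase that cuts ribosomal RNA precursors (chromosome 9, 35657751 to 35658018), had 1 and 64 counts labelled and 0 and 0 unlabelled. That is at least 19.7-fold higher over the groups, with nearly all counts in labelled library 2 (edgeR adjusted p = 0.226). SCARNA12 and SNORA31 had 305 and 137 counts in labelled library 2 and none in the others. Of 40 small nucleolar and Cajal body RNAs, 8 and 9 had a count in the labelled libraries and 3 and 8 in the unlabelled ones. Of the 40, 25 had no count in any NIK library. None of the 23 tested was called, nor was any of 9 spliceosomal, 7SK, 7SL, Y and vault RNAs. Against the unlabelled libraries of all 9 constructs 4 of the 23 were higher, with DESeq2 1 and with limma voom none. Of 2 tested ribosomal RNA genes none was called in the main test. Under limma voom 1 of them was higher, as it was against the unlabelled libraries of all 9 constructs. The filter that chose the genes tested ran over all poly(A) libraries, so counts with other constructs could let members in. Filtered on the NIK libraries alone, 4 of the first list and 1 of the second were tested. RN7SL2, the RNA of the signal recognition particle, had 468 and 712 counts against 54 and 136 (2.42 ± 1.19 on the log2 scale, edgeR adjusted p = 0.265). The list of small nucleolar and Cajal body RNAs had a median log2 fold change of 0.00 with NIK, where 5 of the 23 had counts in both groups, against 6.20 with NLS and 1.48 with LMA. The spliceosomal list had 0.00, 5.23 and -2.91. The NLS labelled libraries, at 23592251 and 24676054 counts and with the same RNA selection, were of similar depth. In the difference of NIK minus NLS the small nucleolar list had a median of -4.87 and no member called. With so few members counted in the NIK libraries, these medians and missing calls cannot show whether NIK differed from NLS or LMA here. Fitted values of genes without counts in a group depend on the prior count and are no bound.

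Messages for the proteins of the nucleolus did not move with NIK labelling as a group. NCL (chromosome 2, 231453531 to 231483641) encodes nucleolin and had 2064 and 2178 CPM labelled against 2493 and 2302 CPM unlabelled (-0.23 ± 0.14, edgeR adjusted p = 0.362). NPM1, which encodes nucleophosmin, had 1298 and 1386 against 1448 and 1467 CPM (-0.18 ± 0.15, edgeR adjusted p = 0.571). FBL, which encodes the methyltransferase fibrillarin, fell from 381 and 384 CPM to 226 and 166 CPM (-1.02 ± 0.20, edgeR adjusted p = 0.00119). It was 1 of 4 of the 85 ribosome biogenesis genes that fell, with DDX54, GRWD1 and EBNA1BP2, and none rose. All 85 lie above 5 CPM, where 5.66% of genes fell, so this count is near the background. Their 4 calls were all lost under limma voom. The list's median was -0.03, and 39 of its 85 members had overlapping groups. Of 15 genes of RNA polymerase I and its factors, TAF1D rose, with 186 and 178 against 67.5 and 72.7 CPM (1.32 ± 0.30, edgeR adjusted p = 0.00585). TAF1D hosts snoRNAs, keeps introns and is also counted in the list of retained introns. POLR1A, the largest polymerase I subunit, had 328 and 240 against 163 and 179 CPM (0.68 ± 0.24, edgeR adjusted p = 0.0977), and the factor UBTF had 222 and 156 against 245 and 229 CPM.

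Cytosolic ribosomal protein messages, which are translated outside the nucleus, made up a smaller share of the labelled libraries. Summed over the 79 genes they were 27696 and 27996 CPM labelled and 41549 and 43830 CPM unlabelled. All 79 lie above 5 CPM. In the test 43 of 79 fell, against 5.66% of all genes from 5 CPM. Lower calls were more frequent at high levels. At 100 to 500 CPM in the unlabelled libraries 263 of 2232 genes fell, and from 500 CPM 79 of 243. At these levels 58.2% and 79.8% of genes had groups that did not overlap in either direction. Of the list's members 63 had both labelled values below both unlabelled ones. The list was not compared with genes of like level. The median log2 fold change was -0.63. RPL36 had 118 and 115 against 296 and 389 CPM (-1.61 ± 0.22, edgeR adjusted p = 1.33e-05). RPS19 had 276 and 323 against 647 and 776 CPM (-1.31 ± 0.18, edgeR adjusted p = 1.8e-05). RPL13 had 143 and 233 against 454 and 524 CPM (-1.44 ± 0.21). Under limma voom the median was -0.67 and 5 members fell. Against the unlabelled libraries of all 9 constructs it was -1.06 and 64 fell, and -1.09 with 64 when the low-complexity ones were left out. RPL36A was the only member higher, with 208 and 51.2 CPM against 18.0 and 18.3 CPM (2.80 ± 0.58, edgeR adjusted p = 0.00224). Its locus shares exons with a readthrough transcript, so the counting could have moved reads between the annotations, and the call was lost without labelled library 1.

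Many ribosomal protein messages have a similar start. Such transcripts are known to begin with a terminal oligopyrimidine tract, a C followed by an unbroken run of pyrimidines that ties their translation to growth signals. A tract was counted as a C and at least 4 further pyrimidines on the coding strand, with no pyrimidine just before the C. Of the 63 members with a promoter entry in RefSeq (GRCh38.p14), 39 had such a tract beginning within 10 bases of the annotated start. That is 61.9%, against 24.9% of all 35116 promoters searched in the same window. Among the 43 members that fell, 34 had an entry and 23 of these a tract. Of the others 29 had an entry and 16 a tract. RPS19 and RPL13, named above, had none by this rule. In RPS19 the run of pyrimidines at the start begins with a T, which the rule does not count. The snoRNA host genes had a tract in 6 of 20 entries. Annotated starts can be off by some bases, so a missing match says only that no tract of this form begins in this window. The 30 bases around the start are shown for 4 members that fell, picked among those with a tract to show what it looks like, with the tract in capitals and 15 bases on each side of the start.
RPL36: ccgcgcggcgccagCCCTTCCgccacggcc
RPL3: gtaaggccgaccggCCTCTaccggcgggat
RPLP0: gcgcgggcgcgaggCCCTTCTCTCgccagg
RPS3: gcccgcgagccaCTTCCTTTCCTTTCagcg
These lie in GRCh38 at chr19:5690280-5690309 on the plus strand, chr22:39319609-39319638 and chr12:120201097-120201126 on the minus strand, and chr11:75399503-75399532 on the plus strand. Their tracts are 7, 5, 10 and 14 bases long, and the log2 fold changes of these 4 messages were -1.61, -0.85, -0.81 and -0.81.

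Other messages translated in the cytosol fell too. The counts of this paragraph are to be read against all genes. From 5 CPM 5.66% fell. By unlabelled level 263 of 2232 fell at 100 to 500 CPM, and 79 of 243 from 500 CPM. The lists were not compared with genes of like level. Of 60 genes for soluble cytosolic proteins, which summed to 41392 and 42393 CPM unlabelled, 22 fell and none rose (median -0.53). ACTB, which encodes beta-actin, had 800 and 785 against 1560 and 1559 CPM, values that hardly differed within a group (-1.03 ± 0.15, edgeR adjusted p = 3.49e-05). GAPDH, a glycolytic enzyme gene, had 1497 and 1148 against 2072 and 2435 CPM (-0.82 ± 0.18, edgeR adjusted p = 0.00448). PSMB4, a proteasome subunit gene, had 144 and 165 against 344 and 342 CPM (-1.21 ± 0.23). Of 72 nuclear genes of the respiratory chain 20 fell and none rose (median -0.65). Its lowest was COX6B1, with 30.8 and 29.6 against 116 and 118 CPM (-2.01 ± 0.25, edgeR adjusted p = 5.94e-06). CYC1, which encodes cytochrome c1, had 36.4 and 97.8 against 171 and 176 CPM (-1.45 ± 0.26). Under limma voom 4 of the cytosolic and 3 of the respiratory chain genes were called lower, with medians of -0.56 and -0.69.

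Messages translated at the endoplasmic reticulum also fell more often than they rose, 12 against 2 of 60 (median -0.40). Of all genes from 5 CPM 5.66% fell and 2.45% rose. In the fractions this list ran the other way: 54 of the 60 were higher in the nuclear than in the cytosol fraction, with a median log2 fold change of 1.57. SSR2, a subunit of the translocon-associated complex, had 84.0 and 96.2 against 222 and 248 CPM (-1.44 ± 0.17, edgeR adjusted p = 2.97e-06). PSAP, a lysosomal protein gene, had 212 and 226 against 414 and 449 CPM (-1.04 ± 0.17), and SLC7A5, an amino acid transporter gene, 153 and 209 against 426 and 415 CPM (-1.28 ± 0.22). ITGA5, an integrin gene, had 7 and 81 counts labelled against 756 and 584 unlabelled, a log2 fold change of -4.03 ± 0.59. The 2 members that rose were CD46 (0.92 ± 0.21) and CD47 (0.85 ± 0.25), neither of which was called under limma voom.

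No messenger RNA made inside mitochondria was called, but this depended on the libraries used. MT-CO1, a subunit of cytochrome oxidase, had 7462 and 6150 CPM labelled against 11018 and 11367 CPM unlabelled (-0.77 ± 0.24, edgeR adjusted p = 0.0517). The labelled values were below the unlabelled ones, and the call depends on the processing: it passed in each fit without 1 NIK library. MT-ND6, the one messenger RNA of the other mitochondrial strand, had 57.4 and 122 against 96.0 and 87.9 CPM, with overlapping groups. Mitochondrial genes took 3.23% and 2.68% of the labelled and 3.73% and 3.64% of the unlabelled counts. Of 13 mitochondrial messages none was called, 6 had both labelled values below and 1 had both above. That count of calls is unsteady: without labelled library 1 there were 5 members lower, without any 1 of the other 3 libraries 3 lower, and against the unlabelled libraries of all 9 constructs 4 lower, or 10 when the low-complexity ones were left out.

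**Figure D4:**
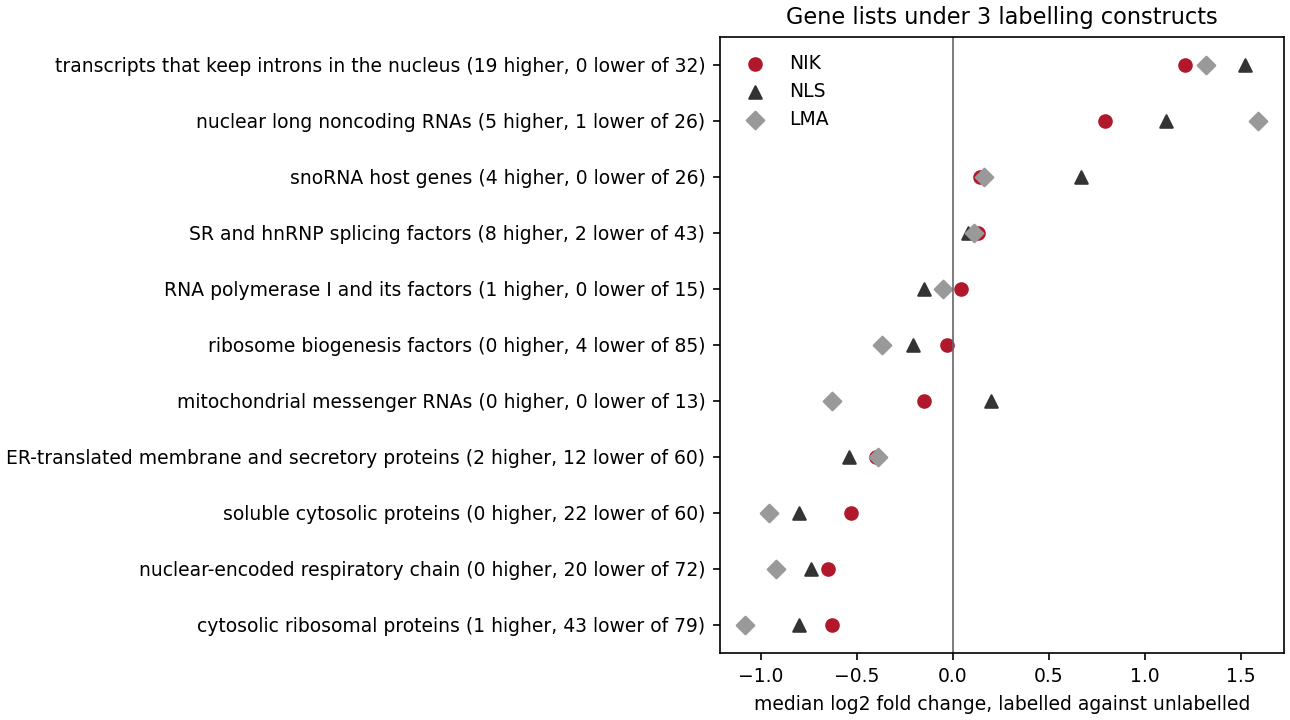
Median log2 fold change of labelled against unlabelled over the tested members of 11 gene lists, for the constructs NIK, NLS and LMA, with the counts of members called higher and lower for NIK. The medians run from 1.21 to -0.65 for NIK, and those of NLS and LMA lie on the same side of 0 in the lists furthest from it.

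By the naming rule the 14 higher genes with the largest log2 fold changes were CBWD6, GABPB1-AS1, RPL36A, NBPF12, GOLGA8B, RHPN1, CFAP44, GOLGA8A, HEXDC, FAM229A, MXD1, GLI4, HEMK1 and ARFRP1, from 4.21 ± 1.28 for CBWD6 to 2.46 ± 0.52 for ARFRP1. CBWD6, NBPF12, GOLGA8A and GOLGA8B belong to families of near-identical copies, and how reads were shared among the copies is unknown. HEMK1, a gene for a glutamine methyltransferase, had 166 and 82.1 CPM against 22.4 and 20.8 CPM (2.48 ± 0.45, edgeR adjusted p = 0.000638). RHPN1, GOLGA8A, HEMK1 and GABPB1-AS1 were called in each fit without 1 library. CBWD6, NBPF12, MXD1, CFAP44 and GLI4 lost the call in at least 2 of them, and GOLGA8B, HEXDC, FAM229A, ARFRP1 and RPL36A in 1.

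Because low genes were unsteady, the genes averaging 50 CPM or more are given as well, a limit chosen after the values were seen. XRCC2, a gene of DNA repair by recombination (chromosome 7, 152644779 to 152676165), had 343 and 302 CPM against 63.0 and 56.9 CPM (2.37 ± 0.27, edgeR adjusted p = 1.46e-06; limma voom adjusted p = 8.43e-07). PAXBP1 had 344 and 174 against 47.6 and 55.4 CPM (2.28 ± 0.35), and SFI1, a centriole gene, had 113 and 113 against 16.2 and 28.0 CPM (2.29 ± 0.67). PTBP2, the neuronal relative of a splicing repressor, had 134 and 79.5 against 18.2 and 28.4 CPM (2.15 ± 0.47), a call lost without unlabelled library 1. In each of these both labelled values were well clear of the unlabelled ones.

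At the lower end from 50 CPM stood TIMM17B, a subunit of the mitochondrial protein import channel, with 7.28 and 23.7 CPM against 93.5 and 107 CPM (-2.78 ± 0.40, edgeR adjusted p = 3.11e-05). COX7A2L, a factor of respiratory supercomplexes, had 25.3 and 20.9 against 95.3 and 93.8 CPM (-2.09 ± 0.51, edgeR adjusted p = 0.00998). SERF2 had 23.6 and 64.7 against 132 and 167 CPM (-1.84 ± 0.28), and NCAPH2, a condensin subunit gene, 30.7 and 26.2 against 101 and 94.5 CPM (-1.84 ± 0.28). Of 14 such genes only COX6B1 and SERF2 were called under limma voom, while the 14 on the higher side all were.

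The 12 lower genes with the largest fold changes by the naming rule all had 0 counts in both labelled libraries. They were CCDC113, CKS1BP3, FARS2, SEL1L3, DUBR, KRCC1, DHRS4L2, SPARC, SHPK, TSPEAR-AS2, TTI2 and XK. Their unlabelled levels were low, as with SEL1L3 (chromosome 4, 25747427 to 25863760), at 16.2 and 19.9 CPM, and SPARC, a gene of a matrix protein, at 19.3 and 6.87 CPM. By the floor of 3 counts over the labelled group they were at least 189-fold (XK) to 342-fold (CCDC113) lower. The bound is for counts: the labelled libraries lacked counts for many genes of this level, and the part of that in these calls was not tested.

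In the remaining lists counts are to be read against 1.28% of all genes higher and 3.96% lower, or 2.45% and 5.66% from 5 CPM. Of these lists, 4 of 23 immediate early genes, which respond within minutes to stimuli, fell and none rose. IER5 had 12.2 and 33.9 against 42.0 and 48.9 CPM (-1.05 ± 0.30, edgeR adjusted p = 0.0286) and CYR61 3.32 and 4.67 against 18.9 and 22.5 CPM. FOS and IER3 had no count in either labelled library. Of 24 p53 targets 2 fell, and of 21 heat shock and oxidative stress genes 2 fell. Of 40 tested replication-dependent histone genes, whose messages mostly lack poly(A) tails, 4 fell, and of 16 mitochondrial ribosomal and transfer RNAs 1. None of the members of these lists that fell averaged 5 CPM or more, and at low levels the labelled libraries lacked counts for many genes. The zinc finger genes named ZNF had 11 members higher and 15 lower of 464, shares near those of all genes, and antisense RNAs named AS1 had 5 higher and 8 lower of 500. Again none of the AS1 members that fell averaged 5 CPM or more, while all 5 that rose did. Among the ZNF genes from 5 CPM the medians differed from those of all genes, at 0.49 against 0.02, and 124 of 336 had both labelled values above the unlabelled ones while 41 had both below, against 50.1% of all genes from 5 CPM whose groups did not overlap in either direction. Of 10 HEK293T markers HOXA9 rose and VIM fell, and none of 7 tested markers of other cell types was called.

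The called genes differed in length, base composition and log2 fold change between the fractions, none of which entered the test. Over the genes from 5 CPM, those called higher had a median exonic length of 7249 bases and a GC content of 43.3%, those called lower 3134 bases and 53.7%, and all 11859 had 5099 bases and 47.5%. With the genes in 5 equal bins, 0.423% of the shortest bin were higher and 12.4% lower, and of the longest 4.73% and 1.94%. In the bin with the lowest GC content 4.27% were higher and 0.93% lower, and in the highest 2.07% and 8.4%. Medians of the NIK log2 fold change ran from -0.31 to 0.23 over the bins of length, against -0.51 to 0.38 for NLS and -0.65 to 0.52 for LMA. Over the bins of GC content they went from 0.34 down to -0.19 for NIK and from 0.44 down to -0.31 for LMA, but from 0.03 up to 0.18 for NLS. Longer genes give more counts per molecule, and what part length has in the calls was not tested.

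Protein-coding genes were 89.7% of the higher, 88.1% of the lower and 89.8% of all genes from 5 CPM. Long noncoding RNAs were 19 of the 290 higher, 7 of the 671 lower and 441 of all 11859 genes. Processed pseudogenes, intronless copies whose reads can come from the parent gene, were 68 of the lower, none of the higher and 524 of all genes. On the 5 chromosomes that carry ribosomal RNA gene arrays (13, 14, 15, 21 and 22), 3.09% of 1422 genes were higher and 4.71% lower, near the 2.45% and 5.66% of all.

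The fractions gave a measure, from other libraries, of how RNAs split between a nuclear and a cytosol fraction. That split is no plain measure of location: 54 of 60 messages translated at the endoplasmic reticulum were higher in the nuclear fraction. Between nuclear and cytosol fraction 6535 of 19115 genes were higher (34.2%) and 5323 lower (27.8%). Of the 290 genes higher with NIK, 243 (83.8%) were positive in the nuclear fraction, with a median log2 fold change of 1.22, and 210 of them passed the test there. Of the 671 lower genes 119 (17.7%) were positive, with a median of -0.96, and 457 were called higher in the cytosol. Over all genes from 5 CPM 42.8% were positive and the median was -0.20. Of 5 equal bins, the one highest in the nuclear fraction had 7.25% higher and 2.07% lower with NIK. The one highest in the cytosol fraction had 0.337% and 13.2%. The trend was shared with the other nuclear constructs: from that cytosolic to that nuclear bin, median log2 fold changes with labelling went from -0.31 to 0.52 for NIK. They went from -0.58 to 1.02 for NLS and from -0.64 to 0.73 for LMA. MALAT1 was at 4.52 and NEAT1 at 4.20 in the fractions, RPL36 at -1.48 and ACTB at -1.98. Mitochondrial messages had a median of -4.06 there and -0.15 with NIK. Across the 11859 genes the 2 log2 fold changes had a Pearson correlation of 0.34, which is across genes that share libraries and length and is given as a description.

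**Figure D5:**
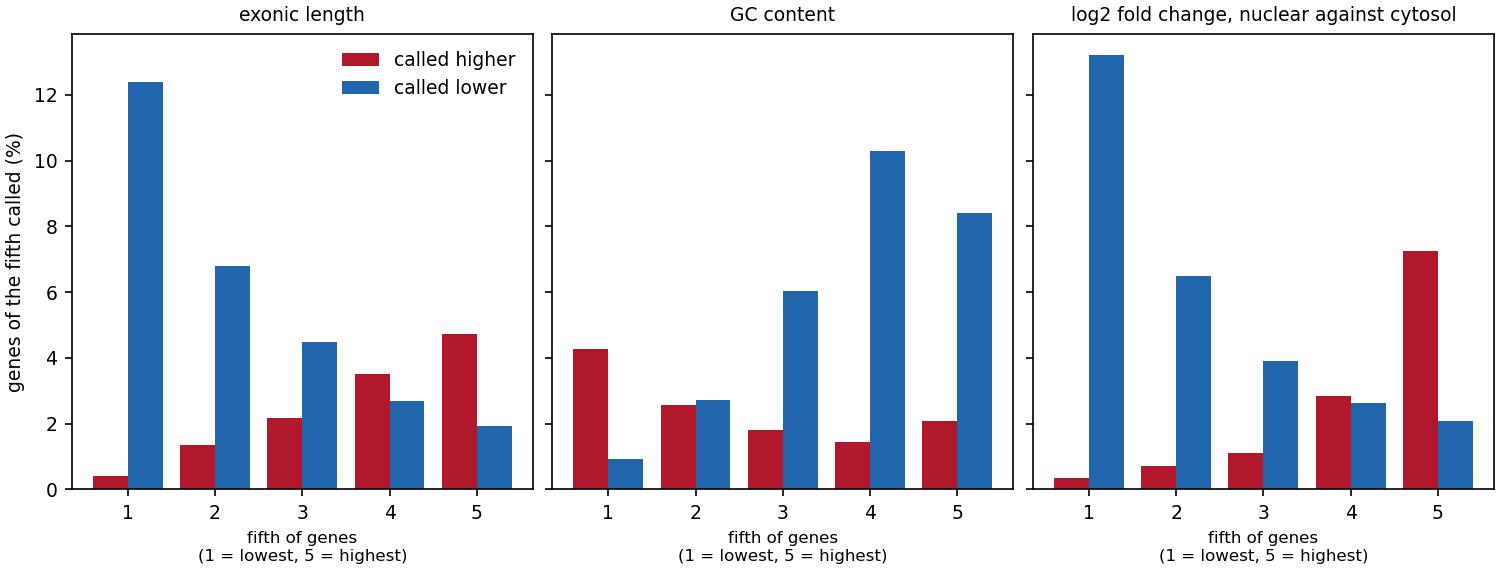
Percentage of genes called higher (red) and lower (blue) with NIK labelling in 5 equal bins of the genes from 5 CPM, ordered by exonic length, GC content and log2 fold change between nuclear and cytosol fraction. Lower calls go from 12.4% to 1.94% from the shortest to the longest bin. Higher calls go from 0.337% to 7.25% from the bin lowest to the bin highest in the nuclear fraction.

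Whether NIK labelling differed from labelling of the whole nucleus was tested as the difference between the 2 labelled against unlabelled contrasts, which share no library. For NIK minus NLS 10 genes were higher (0.0441%) and 111 lower (0.489%), with 3754 at an unadjusted p under 0.05. No gene was called when the spread came from the 8 libraries of the comparison alone, and without NIK labelled library 2 there were 1900 calls. None of the lists of nuclear long noncoding RNAs, retained introns, snoRNA hosts, splicing factors, ribosome biogenesis or ribosomal proteins had a member called. DDX17 had 1.66 ± 0.18 with NIK and 2.32 ± 0.19 with NLS, MALAT1 2.41 ± 0.50 and 3.65 ± 0.52, and NEAT1 1.95 ± 0.42 and 2.74 ± 0.43. RPS19 had -1.31 ± 0.18 with both. The medians of the retained-intron list were 1.21 and 1.52 and of the ribosomal proteins -0.63 and -0.80. A missing call does not show that the constructs act alike: the SE of such a difference was about 0.25 for DDX17 and larger for lower genes.

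The 6 genes with the largest differences from NLS in the higher direction all had negative log2 fold changes with NLS. GCFC2, a splicing factor gene, had 112 and 143 CPM against 43.4 and 44.6 CPM with NIK, and 45.4 and 50.7 against 71.6 and 60.5 CPM with NLS. The difference of the log2 fold changes was 1.99 ± 0.44 (edgeR adjusted p = 0.0236). SPAST, which encodes the microtubule-severing spastin, had 113 and 111 against 50.6 and 55.9 CPM with NIK and 27.5 and 34.3 against 66.3 and 59.3 CPM with NLS (2.09 ± 0.50, edgeR adjusted p = 0.0448). CUL4B, a ubiquitin ligase scaffold gene, had log2 fold changes of 0.76 ± 0.23 and -0.67 ± 0.23 (difference 1.44 ± 0.33). MTREX, a helicase that feeds RNA to the nuclear exosome and trims 5.8S ribosomal RNA precursors, had 0.47 ± 0.21 and -0.79 ± 0.21 (difference 1.25 ± 0.29). Every one of these calls was lost without at least 1 library, CUL4B's without NIK labelled library 1. In the other direction MT-ND6 had -0.11 ± 0.32 with NIK and 2.04 ± 0.34 with NLS (difference -2.15 ± 0.46, edgeR adjusted p = 0.0214). Its labelled values overlapped between the constructs, at 57.4 and 122 CPM with NIK and 106 and 149 CPM with NLS. The unlabelled values did not, at 96.0 and 87.9 CPM with NIK and 31.1 and 28.5 CPM with NLS. The largest lower differences, SLC8B1, DUBR, SEL1L3, RETREG1, BMF and KRCC1, had no counts in either NIK labelled library.

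Against LMA labelling of the nuclear lamina, 15 genes were higher with NIK (0.0661%) and 178 lower (0.785%), 3830 at an unadjusted p under 0.05, and again none from the 8 libraries alone. Without NIK labelled library 2 there were 1985 calls. RUVBL1, a helicase subunit gene of complexes that assemble snoRNA particles, had 265 and 294 against 246 and 216 CPM with NIK and 142 and 156 against 353 and 277 CPM with LMA. The NIK groups differed little (0.21 ± 0.19) and the LMA groups did not overlap (-1.21 ± 0.20), for a difference of 1.42 ± 0.28 (edgeR adjusted p = 0.00695). That call was lost without LMA unlabelled library 1. MT-RNR1, the small mitochondrial ribosomal RNA, had 0.13 ± 0.25 and -1.30 ± 0.25 (difference 1.42 ± 0.35), PSMB3, a proteasome gene, -0.52 ± 0.25 and -1.96 ± 0.26 (1.43 ± 0.35), and PRDX4, a peroxiredoxin gene, -0.20 ± 0.22 and -1.53 ± 0.23 (1.34 ± 0.32). In the 3 the NIK value was nearer to 0. The unlabelled libraries of the constructs also differed. MT-RNR1 had 389 and 406 CPM unlabelled with NIK and 600 and 934 CPM with LMA, while its labelled values overlapped. PRDX4 had 168 and 189 CPM unlabelled with NIK and 331 and 326 CPM with LMA, and PSMB3 127 and 126 against 198 and 164 CPM. Labelled, PRDX4 had 151 and 174 against 133 and 115 CPM and PSMB3 108 and 73.7 against 47.8 and 53.9 CPM. DDX17 was lower with NIK, at 1.66 ± 0.18 against 2.78 ± 0.19 (difference -1.12 ± 0.25, edgeR adjusted p = 0.0224). The median of ribosomal protein genes was -0.63 with NIK and -1.08 with LMA, and no member was called in the difference.

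The authors' deposited table gives log2 fold changes and p-values for NIK whose header does not say which controls were used or whether the p-values are adjusted. Of 17652 genes with a p, 1372 were positive and 3226 negative with a p under 0.05 in the authors' deposited table. The authors' deposited table lists XRCC2 at 2.51, NEAT1 at 1.86, MALAT1 at 1.85, DDX17 at 1.51, ACTB at -1.14 and RPL36 at -2.15. SNHG1 stands at -0.02 and GAS5 at 0.17 in the authors' deposited table, against 0.85 and 0.96 here.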

How the data were processed

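Poly(A) RNA was counted in 36 libraries of 9 APEX2 constructs, and in 4 fraction libraries of a second table. The genome build is GRCh38 (hg38) and the tools listed are HTSeq, STAR, Trimmomatic, bedtools, SAMtools and DESeq2, without roles or versions, per the submitters' processing notes; strand settings are not given in the sources used here. The deposited values are raw counts per gene for 60675 identifiers. The authors' log2 fold changes and p-values were taken from the deposited table and entered no test. Names came from GENCODE 29 for 57055 identifiers and from the deposited table for 131.

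Tests used edgeR 4.0.16 in R 4.3.3: 1 model with a mean for each of 18 groups, TMM factors, filterByExpr at its defaults, a dispersion trend and quasi-likelihood F tests, adjusted by the Benjamini-Hochberg method over all genes tested. An adjusted p under 0.05 was called. SEs were derived from the fold change and its F value, whose root is their ratio. CPM were computed from the raw library totals. The fit was also run on simulated counts drawn with the spread pooled over all 36 libraries. Those counts lack the wider spread of the labelled NIK pair, so they cannot show whether the NIK calls hold. The p-values rest on the spread between the 2 libraries of a group, pooled over all 18 groups. They do not rest on the NIK pairs alone. The members, gene lists, comparisons and naming rule were chosen with earlier results of these data known. Named genes are up to 14 higher and 12 lower genes (6 and 6 for differences between constructs) with the largest fold change among those called with a mean of at least 5 CPM, no clone name and labelled libraries on one side; up to 4 genes of lowest p in each list described; and landmark genes. Other genes named were chosen after their values were seen. Start sequences are RefSeq's. Alternatives were DESeq2 1.42.0, limma 3.58.1 voom with library weights, RLE factors, other filters, scaling, controls and thresholds, a replicate block, and leaving out each library. Same-numbered NIK libraries deviated with a correlation of 0.025.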

Additional observations from a re-analysis of the deposited data

Results flagged for a closer look

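Differences between constructs, tested as the difference of 2 log2 fold changes in edgeR, are the values that stood out here. NIK exceeded NLS labelling in SPAST (2.09, adjusted p = 0.0448), GCFC2 (1.99, adjusted p = 0.0236), CUL4B (1.44, adjusted p = 0.0354), TRAM1 (1.41, adjusted p = 0.0426), ARL6IP5 (1.38, adjusted p = 0.046) and MTREX (1.25, adjusted p = 0.0377). NIK was below NLS in ITGA5 (-3.8, adjusted p = 0.011), MT-ND6 (-2.15, adjusted p = 0.0214), P3H1 (-1.75, adjusted p = 0.0422) and NCAPH2 (-1.61, adjusted p = 0.0435). Genes without a count in either NIK labelled library have no finite fold change, and their edgeR adjusted p against NLS was 5.7e-05 for SLC8B1, 0.0135 for DUBR, 4.3e-05 for SEL1L3, 0.0208 for RETREG1, 0.000837 for BMF, 0.0236 for KRCC1, 0.00604 for CKS1BP3, 0.0232 for DHRS4L2, 0.000456 for SPARC, 0.0175 for TTI2 and 0.0377 for XK.

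Against LMA, NIK was above in CCDC34 (2.29, edgeR adjusted p = 0.0439), SDC2 (2.05, adjusted p = 0.0316), PSMB3 (1.43, adjusted p = 0.0389), MT-RNR1 (1.42, adjusted p = 0.0389), RUVBL1 (1.42, adjusted p = 0.00695) and PRDX4 (1.34, adjusted p = 0.0322), and below in ITGA5 (-3.31, adjusted p = 0.0239) and DDX17 (-1.12, adjusted p = 0.0224). For genes without a count in either NIK labelled library the edgeR adjusted p was 0.0148 for LINC01963, 7.33e-05 for BMF, SEL1L3 and SPARC, 0.0199 for CCDC113, 0.000356 for SLC25A53, 0.0435 for PROX1, 0.0475 for RWDD3, 0.00895 for CKS1BP3, 0.0134 for DUBR, 0.0112 for KRCC1, 0.017 for DHRS4L2, 0.0111 for TTI2 and 0.0331 for XK. The NLS and LMA labelled libraries held 72 to 718 counts for each of these genes. The NIK labelled libraries lacked a count for 27.1% and 15% of genes at 5 to 10 CPM unlabelled, and for 10.7% and 4.77% at 10 to 20 CPM. The part of that in the p-values of genes without a count, against NLS or LMA, was not tested. These p-values rest on a spread pooled over all 18 groups.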

How the results depend on the processing

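The 1189 calls of NIK labelled against unlabelled became 2682 with DESeq2, 540 with limma voom and library weights, 4471 against the controls of all 9 constructs and 5598 against these without 3 low-complexity controls (an alternative added after seeing the data), with 437 (limma voom) to 1189 (DESeq2) of the calls shared. Fitted to the compared libraries alone, with or without a replicate block, 0 genes were called in this comparison and in the differences from NLS and LMA; with the replicate block 1323, 2056 and 1837 genes had an unadjusted p under 0.05. The numbers were not taken to pair the samples. Leaving out 1 library gave 897 to 2837 calls for NIK, 89 to 1900 for the difference from NLS (121 in the full fit) and 249 to 1985 for that from LMA (193 in the full fit). These 2 differences had 1260 and 1407 calls with DESeq2, 814 and 517 with limma voom, and 289 and 435 with no filter on low counts. The 11858 calls between fractions were 7302 among genes from 5 CPM. Of 86 called genes named for NIK, 58 kept the call under limma voom and 65 to 82 without 1 library. SNHG1 turned to -0.03 and -0.05 against the 2 wider control sets, and MT-ATP8, at 0.54 and not called, to -1.17 and -1.16. Under about 50 CPM the labelled libraries disagree and lack genes at totals like those of the unlabelled ones. What limits these values was not tested.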
